A study of Homo sapiens with 4 samples.

Results

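The fibroblast growth factor (FGF) ligand and receptor genes described here are 10 genes chosen by name as a family that maintains human embryonic stem cells. They were found among 60483 Ensembl gene identifiers by matching the identifier, without its version, to a GENCODE gene symbol, and the counts of all 10 were read from each library. The libraries were 2 from H9 cells with SLC35F2 knocked out (SLC35F2 KO, called KO) and 2 from control H9 cells (control). H9, also called WA09, is an established human embryonic stem cell line, so the cells of both groups share 1 background. SLC35F2 belongs to the solute carriers, membrane proteins that move small molecules. The labels name no clone, passage, guide or culture medium, so FGF in the medium is not known. They also do not say whether replicate libraries are separate cultures, and p-values then measure a spread that may be technical.

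Most FGFs are secreted proteins that bind receptor tyrosine kinases together with heparan sulfate chains. The activated receptor signals through adaptor proteins, RAS and the ERK kinases, which switch on genes that in turn dampen the signal. Human embryonic stem cells depend on this signal, and FGF2 is a usual component of their medium. In the mouse, FGF4 made by the pluripotent cells themselves helps them leave that state, and FGF8 acts in the primitive streak.

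No FGF ligand or receptor gene passed the test across all genes, and neither did SLC35F2, the targeted gene. Both KO libraries had less FGF2, FGF4 and FGF19 RNA than either control library. FGFR1 was the most abundant receptor in every library, with a fitted log2 fold change of 0.27, KO over control. FGFR3, FGFRL1 and FGF13 varied as much between libraries of 1 group as between the groups.

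RefSeq promoter entries (GRCh38.p14) matched 6 of the 10 members: FGF2, FGF13, FGFR2, FGFR3, FGFR4 and FGFRL1. The stretches upstream of the transcription start are shown, for FGF2, the leading ligand, and for FGFR3, the receptor that varied most among the controls. Bases that GENCODE places in an exon of the same gene were left off. Capitals mark the GC box GGGCGG or its reverse complement CCGCCC, the letters bound by SP family factors. Both stretches lie on the plus strand, chr4:122826581-122826707 for FGF2 and chr4:1793043-1793292 for FGFR3.
FGF2: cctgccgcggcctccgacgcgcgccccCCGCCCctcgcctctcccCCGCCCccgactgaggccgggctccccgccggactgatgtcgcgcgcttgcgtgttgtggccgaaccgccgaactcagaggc
FGFR3: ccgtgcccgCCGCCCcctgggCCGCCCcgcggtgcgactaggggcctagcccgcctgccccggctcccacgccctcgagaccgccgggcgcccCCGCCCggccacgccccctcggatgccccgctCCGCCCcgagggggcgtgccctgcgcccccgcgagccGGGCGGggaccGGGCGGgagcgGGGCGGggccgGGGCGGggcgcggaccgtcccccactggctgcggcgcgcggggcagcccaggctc
The FGF2 stretch holds 2 GC boxes in 127 bases, with 78.0% G and C. Of 35116 promoters in the table, 21.8% hold at least 1 GC box in the same window. The FGFR3 stretch holds 8 in 250 bases, with 86.8% G and C, and 42.6% of all promoters hold at least 1 in a window of that length. No TATAAA motif was found in either stretch on either strand. These matches describe letters, not occupied sites.

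The 4 libraries held 27824693 to 37978705 reads assigned to genes, and 19027 genes had enough reads to be tested, all 10 members among them. Levels of 1 gene across libraries are given as CPM, the gene's reads per 1000000 reads of the TMM-scaled library. Levels of different genes are compared only per length, as TPM, that is, reads per kilobase of merged exons, scaled so that all genes sum to 1000000 in each library. SLC35F2, the targeted gene, had 12.1 and 9.64 CPM in KO, against 41.0 and 27.1 CPM in control, so the libraries stood on the sides of their labels. In edgeR's quasi-likelihood test 5 of 19027 genes (0.0263%) had an adjusted p under 0.05. Of the 12 pluripotency markers 12 were tested, and 8 had a log2 fold change below 0, where 47.2% of all genes did. Both KO libraries were lower for 3, NANOG, PRDM14 and L1TD1, and higher for 1, LIN28A (16.3% and 15.8% of all genes). PRDM14 had 61.0 and 27.8 CPM in KO, against 91.2 and 86.1 CPM in control. LIN28A, an RNA-binding protein gene, had 2136 and 1822 CPM in KO, against 1689 and 1758 CPM in control. NANOG had 46.2 and 19.1 CPM in KO, against 61.2 and 64.7 CPM in control. Both are abundant in undifferentiated stem cells.

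Of the 10 members, edgeR called 0 at an adjusted p under 0.05, against 0.0263% of all genes tested, and DESeq2 also called 0, against 0.272% of its genes. At an unadjusted p under 0.05 edgeR placed 3 members, FGF2, FGF4 and FGF19, against 4.06% of all genes. Both KO libraries were lower than both controls for 4 members, namely the same ligands and FGFR2, where 16.3% of all genes tested were. Both KO libraries were higher for 1 member, FGFR1, where 15.8% of all genes were. The log2 fold change, KO over control, was below 0 for 8 members, against 47.2% of all genes. Its median over the members was -0.56, beside 0.029 over all genes.

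**Figure D1:**
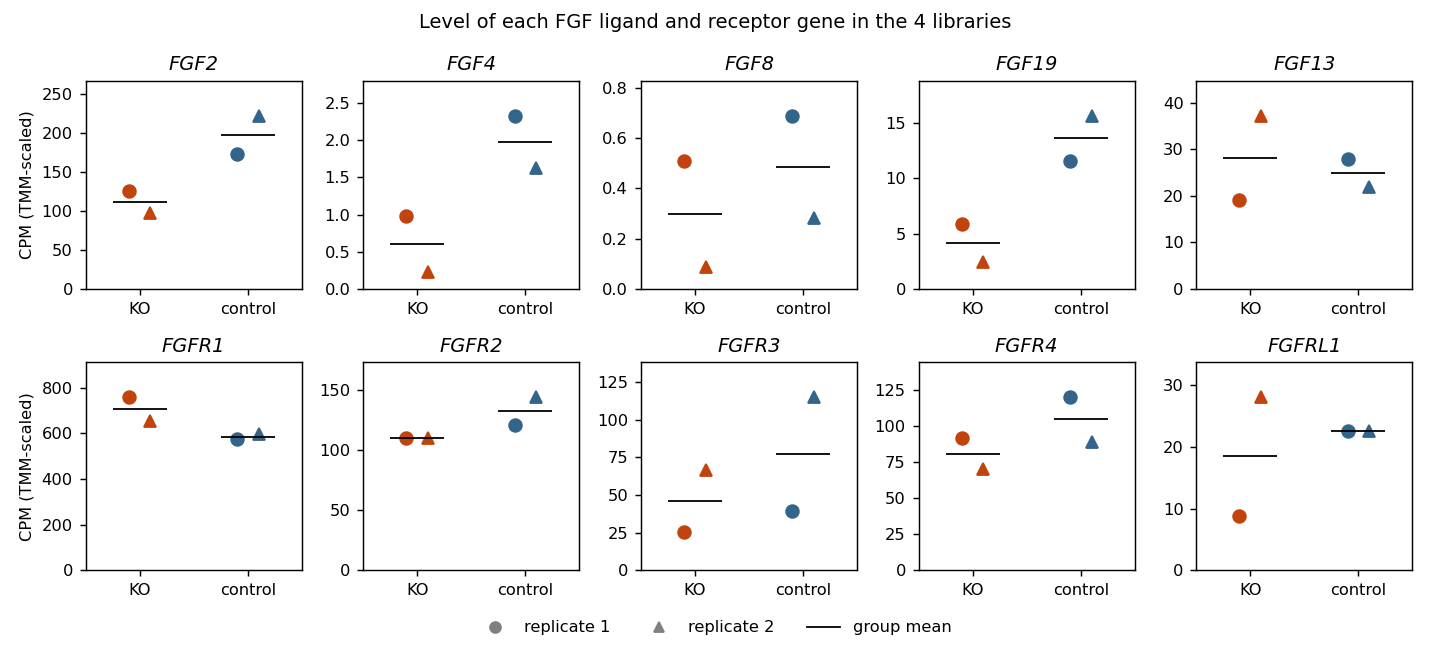
Level of each of the 10 genes in TMM-scaled CPM (vertical axis, from 0, a separate scale per gene) in KO (left) and control (right). Circles are replicate 1, triangles replicate 2 and bars the group means. The points of FGF2, FGF4 and FGF19 in KO all lie under those in control, while those of FGFR3 and FGFRL1 are spread within a group.

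FGF2 (ENSG00000138685.11, chromosome 4, 122826708 to 122898236, plus strand of GRCh38) was by far the most abundant secreted ligand. It encodes basic FGF, a ligand without a classical signal peptide that is used to keep human stem cells undifferentiated. Its level was 125 CPM in KO 1 and 97.7 CPM in KO 2, against 174 CPM in control 1 and 222 CPM in control 2. The groups did not overlap, and both KO libraries were lower. The means were 112 ± 19.6 CPM in KO and 198 ± 34.3 CPM in control (SD, n = 2 each), a 1.77-fold lower fitted level in KO. The log2 fold change was -0.83 ± 0.28 (SE), with a 95% confidence interval from -1.46 to -0.19. edgeR's unadjusted p was 0.0164, and its Benjamini-Hochberg adjusted p over all genes was 0.997. NUDT6, a protein-coding gene on the opposite strand, shares 804 exon bases with FGF2 (11.9% of the merged FGF2 exons). NUDT6 had 3.23 and 3.16 CPM in KO, against 5.03 and 5.40 CPM in control. Its part in the FGF2 counts was not tested.

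FGF19 (ENSG00000162344.3, chromosome 11, 69698232 to 69704642, minus strand) came second among the secreted ligands. It encodes an endocrine FGF best known as the gut hormone that restrains bile acid synthesis through FGFR4. It had 5.89 CPM in KO 1 and 2.40 CPM in KO 2, against 11.6 CPM in control 1 and 15.7 CPM in control 2. These values came from 162 and 82 reads in KO, against 438 and 557 reads in control. Both KO libraries were lower, and KO 2 was the lowest. The means were 4.14 ± 2.47 CPM in KO and 13.6 ± 2.87 CPM in control (SD, n = 2 each), a 3.34-fold lower fitted level in KO. Its log2 fold change was -1.74 ± 0.50 (SE; 95% confidence interval -2.88 to -0.59), and edgeR gave an adjusted p of 0.997 beside an unadjusted p of 0.0075. DESeq2 gave an adjusted p of 0.143. Without KO 1, edgeR called FGF19 (log2 fold change -2.49, adjusted p = 0.000262), but it then called 5.3% of all genes. That fit takes the spread of the single KO library to equal that of the controls.

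FGF4 (ENSG00000075388.3, chromosome 11, 69771016 to 69775403, minus strand) lies near FGF19. It encodes a secreted ligand whose gene is a known target of the pluripotency factors OCT4 and SOX2. It had 27 and 8 reads in KO, against 88 and 58 reads in control, or 0.981 and 0.234 CPM in KO, against 2.33 and 1.63 CPM in control. Both KO libraries were lower, at counts that limit the precision. The log2 fold change was -1.78 ± 0.71 (SE; 95% confidence interval -3.40 to -0.16), and edgeR gave an adjusted p of 0.997 beside an unadjusted p of 0.035. Without KO 1 FGF4 was called (log2 fold change -3.06, adjusted p = 0.0244), with the same assumption and the same 5.3% of all genes, and without KO 2 its log2 fold change was -1.01. Among 14826 protein-coding genes, SLC4A11, ITGA9 and CCDC172 stood nearest to FGF4 over the 4 libraries on a log2(CPM + 1) scale. The measure is the Euclidean distance between values centred on each gene's mean. It was 0.0157 for SLC4A11, 0.0669 for ITGA9 and 0.0767 for CCDC172. The added 1 shrinks differences at the low CPM of FGF4, so a small distance does not mean equal fold differences. SLC4A11 had 19.0 and 11.6 CPM in KO, against 32.6 and 25.4 CPM in control.

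FGF8 (ENSG00000107831.11, chromosome 10, 101770130 to 101780369, minus strand), which encodes a ligand of the primitive streak and of brain patterning centres, was at the limit of detection. It had 14 and 3 reads in KO, against 26 and 10 reads in control. The groups overlapped, since KO 1 stood above control 2 in CPM (0.509 CPM in KO 1, against 0.281 CPM in control 2). Its log2 fold change was -0.81, with a 95% confidence interval from -2.79 to 1.18. A difference was not detectable at this depth.

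FGF13 (ENSG00000129682.12, chromosome X, 138614731 to 139222777, minus strand) encodes an FGF homologous factor, which stays inside the cell and binds voltage-gated sodium channels and microtubules in place of FGF receptors. It had 19.1 CPM in KO 1 and 37.2 CPM in KO 2, against 28.0 CPM in control 1 and 21.8 CPM in control 2. The KO libraries were the lowest and the highest of the 4, so the groups overlapped. Its fitted log2 fold change was 0.18 (95% confidence interval -0.68 to 1.04), and it was -0.38 without KO 2.

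**Figure D2:**
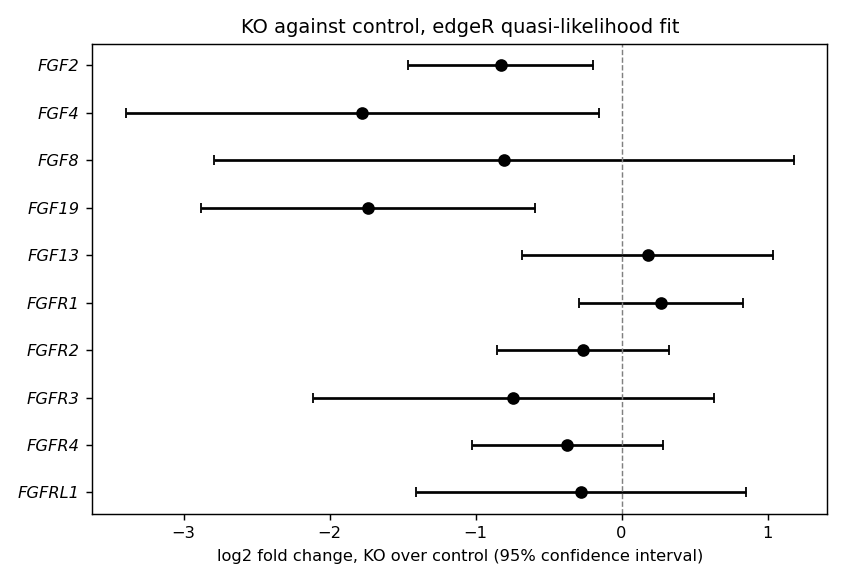
Fitted log2 fold change, KO over control, of the 10 genes (points) with 95% confidence intervals (lines) from edgeR's quasi-likelihood fit on 2 KO and 2 control libraries; the dashed line marks no difference. The intervals of FGF2, FGF4 and FGF19 lie below 0 and the other 7 span it.

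Per length, the ligands kept a steep order. FGF2 had 63.9 and 41.7 TPM in KO, against 82.1 and 121 TPM in control. FGF19 followed with 8.30 and 2.83 TPM in KO, against 15.2 and 23.7 TPM in control. In every library FGF2 stood above FGF19, and FGF19 above FGF4 and FGF8. The order of FGF4 and FGF8 differed between libraries. FGF4 had 1.05 and 0.209 TPM in KO, against 2.31 and 1.87 TPM in control. FGF8 had 1.25 and 0.181 TPM in KO, against 1.57 and 0.742 TPM in control. The summed TPM of these 4 ligands was 74.5 in KO 1 and 45.0 in KO 2, against 101 in control 1 and 148 in control 2. FGF2 made up 85.8% and 92.8% of that sum in KO, against 81.2% and 82.2% in control. With 2 libraries a group, no exact test of such sums can reach a p of 0.05, so none is given. In bulk RNA, fewer cells that express a gene and less RNA per cell cannot be told apart.

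FGFR1 (ENSG00000077782.18, chromosome 8, 38400215 to 38468834, minus strand), a receptor tyrosine kinase that binds FGF2 and FGF4, led the receptors. It had 759 CPM in KO 1 and 653 CPM in KO 2, against 575 CPM in control 1 and 595 CPM in control 2. On this scale both KO libraries were higher, and the means were 706 ± 75.0 CPM in KO and 585 ± 14.7 CPM in control (SD, n = 2 each). The log2 fold change was 0.27 ± 0.25 (SE), with a 95% confidence interval from -0.29 to 0.83, and its edgeR adjusted p was 0.997. The groups overlapped in TPM, with 189 and 137 TPM in KO, against 133 and 159 TPM in control, and also when CPM was scaled by library size only. Under those scalings 0 members were higher in both KO libraries, where 10.3% and 10.2% of all genes were.

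FGFR2 (ENSG00000066468.19, chromosome 10, 121478334 to 121598458, minus strand) has splice forms that give an epithelial and a mesenchymal receptor. It had 110 CPM in both KO 1 and KO 2, against 121 CPM in control 1 and 144 CPM in control 2. Both KO libraries were lower, here and on each other scaling used, where 16.3% to 21.3% of all genes were. The FGFR2 log2 fold change was -0.27, with a 95% confidence interval from -0.86 to 0.32. The counts are per gene, so its splice forms were not separated.

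FGFR4 (ENSG00000160867.13, chromosome 5, 177086886 to 177098144, plus strand), the receptor through which FGF19 acts in liver, had 91.5 CPM in KO 1 and 70.4 CPM in KO 2. It had 120 CPM in control 1 and 89.2 CPM in control 2. The groups overlapped in CPM, since KO 1 was slightly above control 2. They did not overlap in TPM or with library size only, where both KO libraries were lower and 18.3% and 21.3% of all genes were. Its fitted log2 fold change was -0.37 (95% confidence interval -1.03 to 0.29).

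FGFR3 (ENSG00000068078.16, chromosome 4, 1793293 to 1808872, plus strand), a receptor known for restraining bone growth, differed between libraries of 1 group more than between the groups. It had 25.5 CPM in KO 1 and 66.4 CPM in KO 2, against 39.3 CPM in control 1 and 115 CPM in control 2. KO 2 stood above KO 1 by 1.38 on the log2 scale, and control 2 above control 1 by 1.55. FGFR3 had a log2 fold change of -0.74 with a 95% confidence interval from -2.12 to 0.63. Without KO 2 it was called (log2 fold change -1.59, adjusted p = 0.00626), where 0.927% of all genes were, with the same assumption on a single KO library. Without control 2 its sign turned (0.23).

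FGFRL1 (ENSG00000127418.13, chromosome 4, 1009936 to 1026897, plus strand) encodes a receptor-like protein that binds FGFs but lacks the kinase domain. It had 8.86 CPM in KO 1 and 28.1 CPM in KO 2, against 22.5 CPM in both controls. The KO libraries differed 3.17-fold and stood on either side of the controls. FGFRL1 had a log2 fold change of -0.28 (95% confidence interval -1.41 to 0.85), and it was -1.34 without KO 2 and 0.33 without KO 1.

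**Figure D3:**
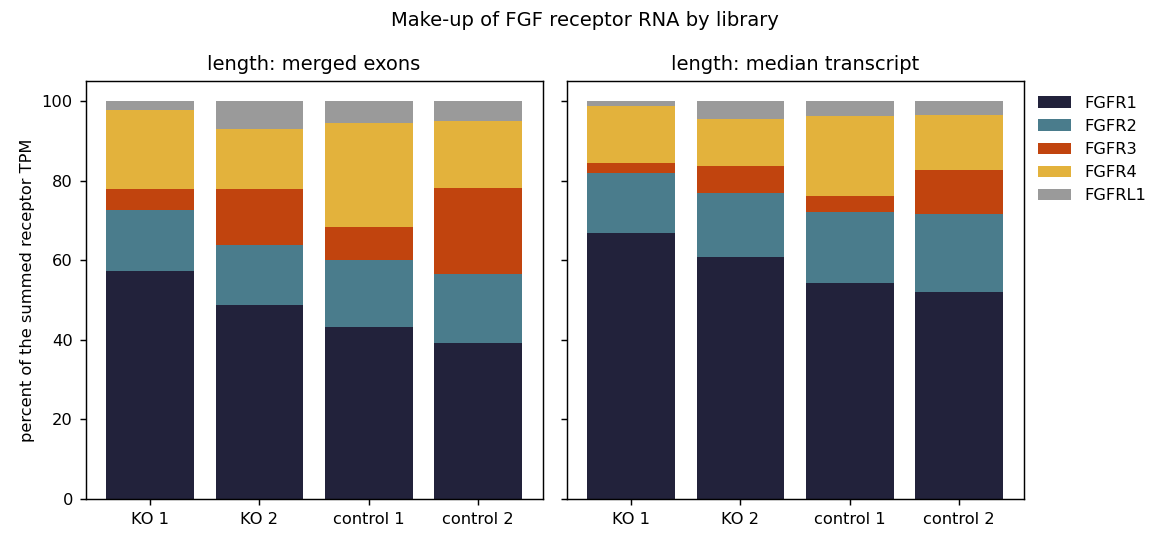
Share of each receptor gene in the summed receptor TPM (vertical axis, percent) in KO 1, KO 2, control 1 and control 2, with TPM computed on merged exon length (left panel) or on the median protein-coding transcript (right panel). FGFR1 is the largest share in each bar, and FGFR3 is larger in KO 2 and control 2 than in KO 1 and control 1.

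Per length, FGFR1 stood highest and FGFRL1 lowest in all 4 libraries. FGFR1 took 57.3% and 48.7% of the summed receptor TPM in KO, against 43.3% and 39.2% in control. FGFR2 took 15.2% and 15.0% in KO, against 16.7% and 17.4% in control. FGFR4 took 19.8% and 15.1% in KO, against 25.9% and 16.8% in control. FGFR2 and FGFR4 had overlapping TPM over the libraries and could not be put in order. FGFR3 took 5.50% and 14.2% in KO, against 8.44% and 21.6% in control, and in control 2 it stood second on merged exon length. These shares depend on the length used, because the merged exons of FGFR1 (13842 bases) are longer than its longest transcript (6216 bases). With the longest transcript as length, FGFR3 took 13.7% in control 2, below FGFR2 (17.4%) and FGFR4 (15.1%). The summed receptor TPM was 330 and 280 in KO, against 307 and 406 in control, so the groups overlapped.

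**Figure D4:**
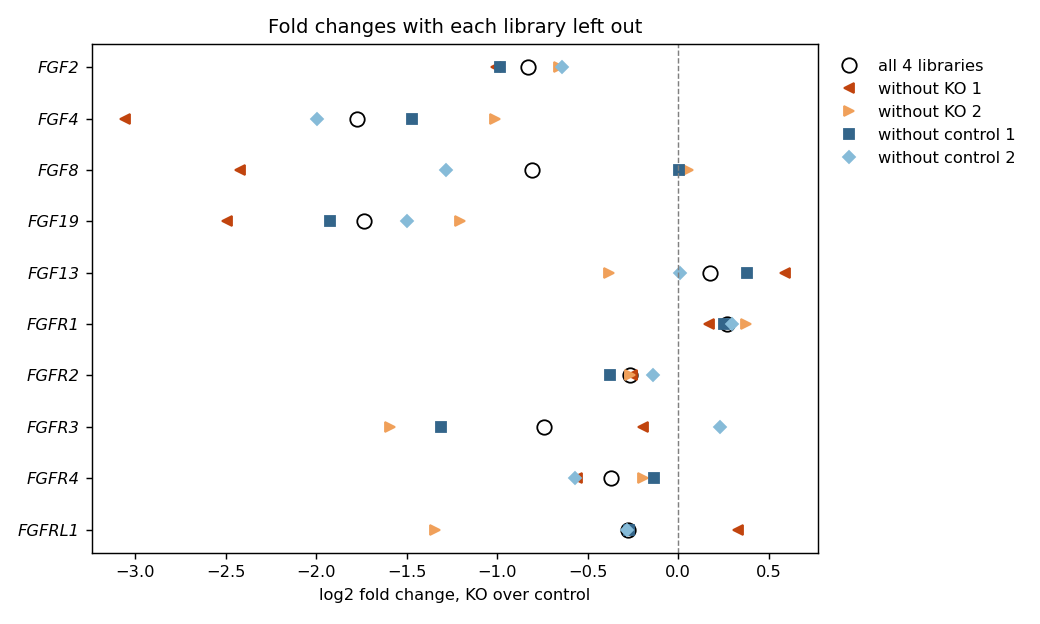
Fitted log2 fold change, KO over control (horizontal axis), of each gene with all 4 libraries (open circles) and with each library left out (filled symbols). FGF2, FGF4 and FGF19 stay below 0 in each fit, while FGF8, FGF13, FGFR3 and FGFRL1 cross 0 in at least 1.

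Of the remaining 17 FGF genes, 11 were tested and edgeR called 0 of them, with 0 at an unadjusted p under 0.05 and a median log2 fold change of -0.08. FGF11 and FGF12, homologous factors like FGF13, were the most abundant per length. FGF11 had 2.03 CPM in KO 1 and 20.0 CPM in KO 2, against 2.59 CPM in control 1 and 7.73 CPM in control 2. FGF12 had 9.30 and 7.19 CPM in KO, against 12.9 and 8.49 CPM in control. FGF23, the phosphate-regulating hormone, had 0.69 and 1.08 CPM in KO, against 0.397 and 0.394 CPM in control, with no call. FGF21, a metabolic hormone induced by stress, was not tested and had 1 read in each KO library, against 9 reads in control 1 and 79 reads in control 2. It was chosen after its values were seen.

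Genes that present or carry FGFs gave no call either. Of 10 co-receptor and carrier genes 7 were tested, 0 were called, and 1 was higher in both KO libraries, where 15.8% of all genes were. FGFBP3, which encodes a secreted FGF carrier, had 209 and 227 CPM in KO, against 271 and 137 CPM in control. CDH2, the N-cadherin gene, had 36.8 and 60.8 CPM in KO, against 53.4 and 54.5 CPM in control. FLRT3, a membrane protein that binds FGF receptors, had 0.908 CPM in KO 1 and 9.90 CPM in KO 2, against 1.75 and 2.11 CPM in control. NCAM1, a neural cell adhesion molecule, had 14.0 and 12.4 CPM in KO, against 10.9 and 11.8 CPM in control. KLB, the beta-Klotho co-receptor that FGF19 needs in liver, had 1.38 and 0.351 CPM in KO, against 0.979 and 0.619 CPM in control, and was named after its values were seen.

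Of 31 genes for heparan sulfate and its core proteins 30 were tested. None was called by edgeR, 1 had an unadjusted p under 0.05, both KO libraries were lower for 7 and higher for 4 (16.3% and 15.8% of all genes), and the median log2 fold change was 0.023. GPC3, a glypican of the cell surface, had 191 and 109 CPM in KO, against 253 and 261 CPM in control (log2 fold change -0.77, 95% confidence interval -1.49 to -0.06). GPC4, another glypican, had 827 and 425 CPM in KO, against 725 and 489 CPM in control. EXTL3, a transferase that starts the chain, had 177 and 245 CPM in KO, against 143 and 165 CPM in control.

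A list of 27 genes covered the relay from receptor to ERK and genes around it. Named here for their role, NF1, RASA1 and CBL restrain the signal, and RPS6KA1, RPS6KA2 and RPS6KA3 lie downstream of ERK. In the list, 2 of 27 genes had a fitted log2 fold change below 0, where 47.2% of all genes did. All 27 genes of this list were tested, edgeR called 0 of them, and 1 had an unadjusted p under 0.05 (4.06% of all genes). Both KO libraries were higher for 15 of the 27, where 15.8% of all genes were, and lower for 0. NF1, RASA1, CBL and RPS6KA3 were among the 15, so they are not all genes that pass the signal on. The median log2 fold change was 0.28, beside 0.029 over all genes. With library size only, 10 were higher in both KO libraries, where 10.2% of all genes were, and the list's median was 0.15, beside -0.097. MAPK3, which encodes ERK1, had 49.4 and 75.8 CPM in KO, against 41.5 and 29.8 CPM in control (log2 fold change 0.81, 95% confidence interval 0.07 to 1.55). SOS1, the exchange factor that loads RAS, had 38.1 and 49.3 CPM in KO, against 25.4 and 31.3 CPM in control. NRAS had 142 and 164 CPM in KO, against 137 and 119 CPM in control. The adaptor SHC1 had 279 and 307 CPM in KO, against 261 and 288 CPM in control, and its groups overlapped.

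Genes that FGF and ERK signalling induces lay on both sides of 0, with 11 of the tested members below it, where 47.2% of all genes were. Of 20 genes 19 were tested, edgeR called 0, and 0 had an unadjusted p under 0.05. The KO libraries both stood lower for 2 and higher for 2, where 16.3% and 15.8% of all genes were, and the median log2 fold change was -0.04. SPRY4, a Sprouty inhibitor of the pathway, had 204 and 120 CPM in KO, against 191 CPM in control 1 and 391 CPM in control 2. SPRY2, of the same family, had 45.3 and 45.7 CPM in KO, against 53.3 and 78.1 CPM in control. ETV4, an ETS factor switched on by FGF, had 196 and 120 CPM in KO, against 143 and 140 CPM in control. DUSP6, the phosphatase that inactivates ERK, was named after its values were seen, with 164 and 146 CPM in KO, against 122 and 187 CPM in control. Its log2 fold change was 0.0035, with a 95% confidence interval from -0.66 to 0.67. The untested member, IER3, is listed at 0 or 1 reads.

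**Figure D5:**
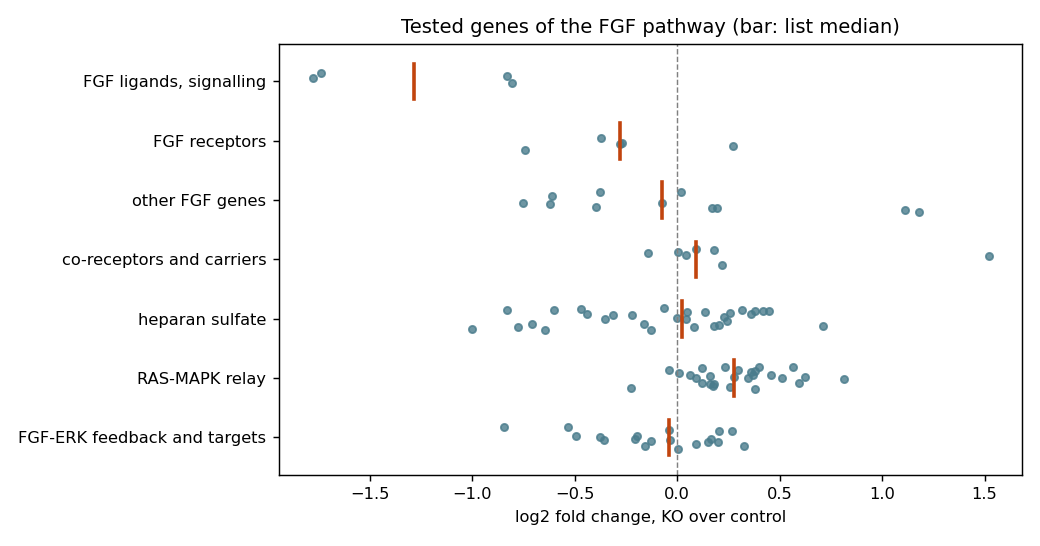
Log2 fold change, KO over control (horizontal axis), of each tested gene (points) in 7 lists of the FGF pathway, with the list median as a bar. The 4 secreted ligands lie below 0, and the relay list lies mostly above it with a median of 0.28.

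Markers of other cell types gave the setting for the ligand values. The 11 markers of primitive streak and mesoderm had a summed level of 160 and 137 CPM in KO, against 290 and 310 CPM in control. Most of it was KDR, the receptor VEGFR2. Of the 6 tested, 4 were lower in both KO libraries, where 16.3% of all genes were. Of the defining markers, TBXT had 10 and 2 reads in KO, against 27 and 24 reads in control, and MSGN1 was at 0 in all libraries. The endoderm markers summed to 6.28 and 7.13 CPM in KO, against 7.02 and 10.2 CPM in control, with SOX17 at 0 to 3 reads. The neuroectoderm markers summed to 547 and 1061 CPM in KO, against 486 and 798 CPM in control, and PAX6 and SOX1 stayed under 2 CPM. Most of that sum was NES, with 525 and 918 CPM in KO, against 462 and 776 CPM in control. Of the 9 neuroectoderm markers tested, 1 had a log2 fold change below 0, where 47.2% of all genes did. Both KO libraries were higher for 2 and lower for 0 (15.8% and 16.3% of all genes), and 7 overlapped. KO 2 stood far above the other libraries in DLK1, with 0.981 CPM in KO 1 and 107 CPM in KO 2, against 6.27 and 3.77 CPM in control. SIX3 had 1 read in KO 1 and 267 reads in KO 2, against 25 and 11 reads in control, and OTX1 had 16 and 226 reads in KO, against 41 and 47 reads in control. Other members of that list were lowest in KO 2. PAX6 had 1.42 and 0.643 CPM in KO, against 1.67 and 0.815 CPM in control. ZIC1 had 0.981 and 0.234 CPM in KO, against 0.662 and 0.478 CPM in control. The trophoblast and amnion markers summed to 20.8 and 27.9 CPM in KO, against 23.5 and 45.0 CPM in control, with CGA at 0 in all libraries and KRT7 the largest part in KO. Within that list CDX2 had 0 reads in both KO libraries, against 16 and 11 reads in control. GATA2 had 3 and 5 reads in KO, against 19 and 305 reads in control. Of the 7 tested in that list, CDX2 and GATA2 were the 2 lower in both KO libraries, where 16.3% of all genes were. CDX2 and GATA2 had enough reads to be tested through the control libraries alone, so their count is no separate support. KRT7 was the 1 higher in both KO libraries, where 15.8% of all genes were. The fibroblast markers summed to 595 and 1146 CPM in KO, against 582 and 931 CPM in control, with DCN at 0 to 2 reads. Most of that sum was THY1, COL1A1 and COL1A2. THY1 had 428 and 337 CPM in KO, against 296 and 375 CPM in control. COL1A1 had 46.7 and 551 CPM in KO, against 128 and 300 CPM in control. The pluripotency markers summed to 8064 and 5082 CPM in KO, against 7831 and 7020 CPM in control, highest in KO 1 and lowest in KO 2. The part of these cell states in the ligand values was not tested.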

How the data were processed

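Poly(A)-selected RNA of 2 SLC35F2 KO and 2 control H9 libraries was sequenced with a stranded kit, per the labels' protocols. The authors deposited raw read counts, 1 whole number for each gene and library. HTSeq 0.11.0, STAR 2.6.0a, cutadapt 1.8.1 and FastQC 0.11.7 are named with GRCh38, per the submitters' processing notes. For the annotation release and the strand setting the sources used here say nothing, so how reads over overlapping genes were counted is not known. The labels also mention quantile normalisation, which whole-number counts with unequal totals do not carry. Reads given to no single gene (14.4% to 20.3% of counted alignments) were left out.

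Symbols, positions and lengths came from GENCODE 29, which matched 56753 identifiers (93.8%). Genes passing edgeR's filterByExpr (minimum count 10) were compared with edgeR 4.0.16 (R 4.3.3; TMM factors, robust quasi-likelihood F test, two-sided, Benjamini-Hochberg adjustment over all genes, threshold 0.05). Standard errors are the log2 fold change over the square root of F, and 95% intervals use the model's t distribution. limma 3.58.1 and DESeq2 1.42.0 served as alternatives. The fit was tested on simulated data. The counts of replicates differed far beyond sampling noise (chi-square per degree of freedom 77.1 in KO and 36.2 in control). Each library was counted as 1 replicate, though such a spread does not show that the libraries are separate cultures.

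The members, lists and rules were chosen with earlier results of these data known. All 10 members are named, and from each list the 2 most abundant per length and the 2 with the smallest p; where another gene is named, the text says so, apart from markers, which serve as a check.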

Additional observations from a re-analysis of the deposited data

How the results depend on the processing

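Over 129 refits of single members (13 alternatives, with FGF8 dropping out at a mean CPM of at least 1), 121 kept direction and side of the threshold. All 5 sign turns and all 3 new calls came with 1 library left out, where a group of 1 is assumed to vary as the other group does. Over those 4 fits the log2 fold change ran from -2.42 to 0.057 for FGF8, from -0.38 to 0.59 for FGF13, from -1.59 to 0.23 for FGFR3 and from -1.34 to 0.33 for FGFRL1. FGF2 ran from -1.01 to -0.64, FGF4 from -3.06 to -1.01 and FGF19 from -2.49 to -1.21. Leaving out 1 library gave 0 to 2 called members and 3 to 1094 called genes overall. The other counts of called genes were 60 with DESeq2, 8 with no filter, 1 with the legacy fit and 1 with quantile normalisation. They were 0 with library size only, with a mean CPM of at least 1 and with limma-voom, with 787, 518 and 692 genes in that order at p under 0.05 before adjustment. The number of members higher in both KO libraries was 0 with library size only and with TPM. With the longest transcript as length, FGFR1 took 63.0% of the receptor TPM in KO and 51.9% in control. With the median transcript, a length chosen after seeing the data as was TPM for the overlap, it took 63.8% in KO and 53.1% in control, and FGF2 took 84.6% of the ligand TPM in control. The cause was not tested. With the replicate number as a block 76 genes were called and 0 members, with FGF19 nearest (adjusted p = 0.0853 in edgeR). The differences between replicates 1 and 2 in KO and in control correlated at 0.38 across genes, which are not independent replicates. With 2 pairs the numbers are not taken to pair the libraries. Low counts limit FGF4 and FGF8.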
